A study of Sus scrofa with 16 samples.

Results

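The genes described here serve antigen presentation through the pig major histocompatibility complex (MHC, called SLA in pigs). A list of 10 symbols was looked up among the 25880 gene identifiers of the liver count tables, and 5 of the 10 were found, namely CD74, TAP1, TAP2, PSMB8 and PSMB9. The other 5 (the class I heavy chains SLA-1, SLA-2 and SLA-3, the class II chain SLA-DRA, and the class I light chain B2M) had no row that the gene name table paired with their symbol, and they were not analysed here. The 5 genes found were chosen by name and not by their values. Crossbred pigs, from Polish Landrace x Polish Large White sows and Duroc x Pietrain boars, were penned singly and fattened from about 60 to 118 kg on feeds of like energy and protein that differed in the added fat. Group R received rapeseed oil (5 pigs, 3 gilts and 2 barrows), group B beef tallow (5 pigs, 2 gilts and 3 barrows) and group C coconut oil (6 pigs, 3 of each sex). There was no group without added fat, and each library came from the liver of 1 pig.

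Class I molecules display peptides made inside the cell to cytotoxic T cells. The immunoproteasome, whose catalytic subunits include PSMB8 and PSMB9, cuts proteins into such peptides, and the TAP1-TAP2 transporter carries them into the endoplasmic reticulum, where chaperones load them onto a heavy chain paired with B2M. Class II molecules display peptides from ingested material to helper T cells, and CD74, the invariant chain, guards their groove and guides them to the compartment where they are loaded. Interferons raise the transcription of most of these genes, and in liver the class II genes are mainly the business of Kupffer cells, dendritic cells and B cells, whereas class I is made by nearly all cells.

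On the Sscrofa11.1 assembly of RefSeq the 4 peptide processing genes lay side by side on chromosome 7, within 32424 bp. TAP2 occupied chr7:25045085-25056915, PSMB8 chr7:25058456-25061666, TAP1 chr7:25062772-25071989 and PSMB9 chr7:25072133-25077508. The gaps between neighbours were 1540, 1105 and 143 bp, the narrowest being that between TAP1 and PSMB9. CD74 lies outside the MHC, at chr2:151402210-151409924.

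Low read numbers limited what could be seen for these genes. The 16 libraries held 705669 to 1767671 reads on genes, and the 5 genes took between 7 and 61 reads each in a pig, with medians of 17 reads for CD74, 23.0 for TAP1, 14.5 for TAP2, 14.5 for PSMB8 and 26.5 for PSMB9. The 7 PSMB8 reads of beef tallow pig 3 carried an exact Poisson 95% interval of 2.81 to 14.4 reads, and the 61 of coconut oil pig 5 one of 46.7 to 78.4, which covers counting error only. Reads that aligned to several places were not counted on any gene. They made up 15.4 to 38.1% of the reads in a library, with a median of 26.5% for rapeseed oil, 22.2% for beef tallow and 19.8% for coconut oil. Values below are normalized counts scaled to library size (CPM). The libraries read the 3′ ends of transcripts, so counts were not divided by transcript length. Levels of different genes were not ranked against each other, because reads with several alignments or on no annotated gene were not counted. In bulk liver, fewer cells of a type and less RNA per cell cannot be told apart.

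**Figure D1:**
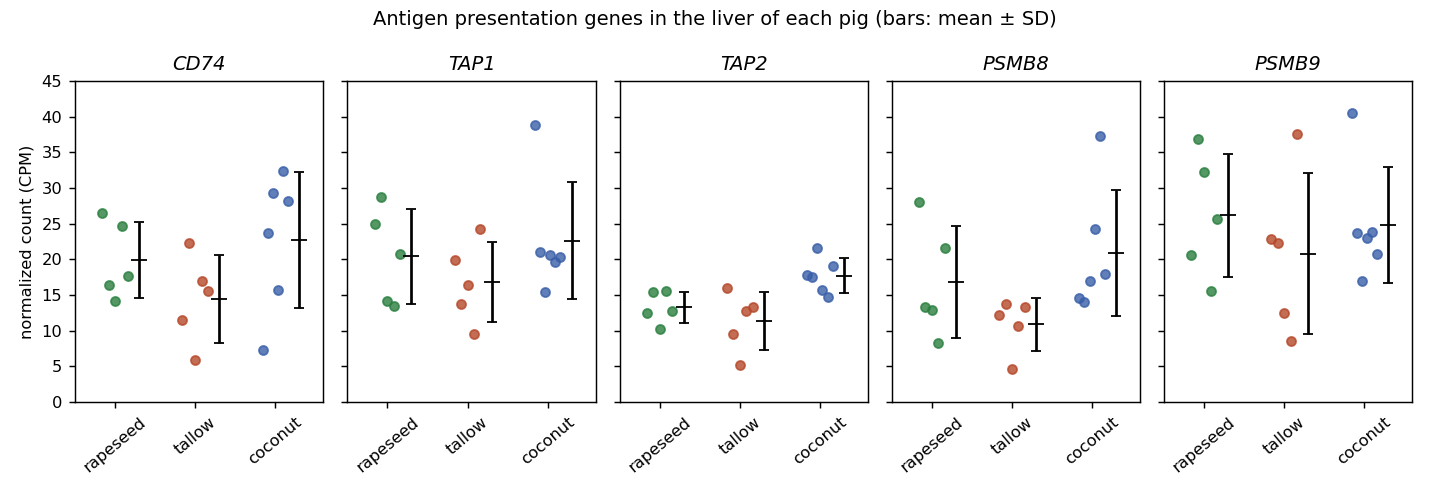
Normalized count (CPM, vertical axis) of CD74, TAP1, TAP2, PSMB8 and PSMB9 in each pig, by diet. Each point is 1 pig, and bars give the mean ± SD (n = 5 rapeseed oil, 5 beef tallow, 6 coconut oil). PSMB8 is the panel in which the beef tallow points, 4.59 to 13.8 CPM, end below the coconut oil points, 14.0 to 37.3 CPM.

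For CD74, the class II chaperone, the rapeseed oil pigs gave 26.5, 16.4, 14.2, 24.7 and 17.7 CPM and the beef tallow pigs 11.5, 22.3, 5.91, 17 and 15.5 CPM. The coconut oil pigs ran from 7.28 CPM through a median of 25.9 to 32.4. Group C thus held the highest CD74 value of the series and, in pig 1, the second lowest, and all 3 diets overlapped. The means were 19.9 ± 5.38 CPM (SD, n = 5) in group R, 14.4 ± 6.14 (SD, n = 5) in group B and 22.8 ± 9.53 (SD, n = 6) in group C.

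For TAP1, 1 of the pair of chains of the peptide transporter, values of 25, 28.7, 14.2, 13.4 and 20.7 CPM were measured in group R and of 19.9, 13.8, 16.4, 9.56 and 24.3 CPM in group B. In group C the lowest value was 15.4 CPM, the median 20.4 and the highest 38.8. Coconut oil pig 1 stood above every other pig, and the other 5 coconut oil pigs lay within the range of group R. The means were 20.4 ± 6.67 CPM (SD, n = 5) in group R, 16.8 ± 5.65 (SD, n = 5) in group B and 22.6 ± 8.20 (SD, n = 6) in group C.

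TAP2, the partner of TAP1, was measured at 12.5, 15.4, 10.3, 15.5 and 12.8 CPM in group R, and at 16, 9.55, 5.25, 12.7 and 13.3 CPM in group B. Group C ran from 14.7 CPM through a median of 17.7 to 21.6. Most coconut oil pigs lay above both other diets, and the overlap came from the lower end of group C. The means were 13.3 ± 2.16 CPM (SD, n = 5), 11.4 ± 4.13 (SD, n = 5) and 17.7 ± 2.46 (SD, n = 6) in groups R, B and C.

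PSMB8, an immunoproteasome subunit, was read at 28.0, 13.3, 12.9, 8.24 and 21.6 CPM in group R and at 12.2, 13.8, 4.59, 10.6 and 13.3 CPM in group B. The lowest, median and highest coconut oil pigs had 14.0, 17.5 and 37.3 CPM. Every coconut oil pig was above every beef tallow pig, by a narrow margin at the boundary, whereas rapeseed oil pigs spanned both. The means were 16.8 ± 7.87 CPM (SD, n = 5), 10.9 ± 3.73 (SD, n = 5) and 20.8 ± 8.84 (SD, n = 6) in groups R, B and C.

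PSMB9, the other immunoproteasome subunit of the list, gave 20.6, 36.9, 32.3, 15.5 and 25.6 CPM in group R and 22.9, 22.3, 12.5, 8.50 and 37.6 CPM in group B. Group C ran from 17 CPM through a median of 23.3 to 40.5, the last again in pig 1. The 3 diets overlapped over most of their ranges. The means were 26.2 ± 8.66 CPM (SD, n = 5), 20.8 ± 11.3 (SD, n = 5) and 24.8 ± 8.10 (SD, n = 6) in groups R, B and C.

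Beef tallow against rapeseed oil asked whether an animal fat rich in long saturated chains changed these genes relative to a plant oil rich in unsaturated ones. All 5 genes had lower fitted values in group B and none passed the test (edgeR quasi-likelihood, Benjamini-Hochberg adjusted p under 0.05 over the 6318 genes tested), where 1.11% of all genes were called. The log2 fold changes were -0.69 for PSMB8 (SE 0.37, 95% interval -1.47 to 0.09, edgeR adjusted p = 0.391), -0.53 for CD74 (SE 0.33, adjusted p = 0.472), -0.34 for PSMB9 (SE 0.35, adjusted p = 0.696), -0.29 for TAP1 (SE 0.30, adjusted p = 0.692) and -0.25 for TAP2 (SE 0.31, adjusted p = 0.767). Their median was -0.34, against 0.01 for all genes tested. At an unadjusted p under 0.05 the count was 0 of 5, beside 15% of all genes, and DESeq2 called none of the 4 to which it gave an adjusted p. The 2 diets overlapped for each of the 5 genes, whereas 4.57% of all genes did not overlap. Beef tallow pig 3 was the lowest of the 16 pigs for CD74, TAP2 and PSMB8, and it was also the lowest for 17.1% and the highest for 15.8% of the 6891 genes kept over all pigs. Without it the values were -0.30 for CD74, -0.03 for TAP2, -0.47 for PSMB8, -0.28 for TAP1 and -0.18 for PSMB9.

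Coconut oil against rapeseed oil asked the same for a plant fat rich in medium saturated chains. No gene of the 5 was called, beside 0.138% of the 6528 genes tested, and none reached an unadjusted p under 0.05, beside 13%. TAP2 had a log2 fold change of 0.39 (SE 0.22, 95% interval -0.07 to 0.86, edgeR adjusted p = 0.474) and PSMB8 of 0.29 (SE 0.33, adjusted p = 0.780). CD74 stood at 0.18 (SE 0.31), TAP1 at 0.14 (SE 0.27) and PSMB9 at -0.05 (SE 0.26), with edgeR adjusted p from 0.861 to 0.958. The median was 0.18, against 0.00 for all genes tested. Diets overlapped for each of the 5, beside 1.46% of all genes that did not overlap. The positive value of TAP1 rested on coconut oil pig 1 and stood at -0.08 without it. That of PSMB8 rested on coconut oil pig 5 and stood at 0.0048 without it.

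Coconut oil against beef tallow compared the diets rich in medium and in long saturated chains. All 5 genes had higher fitted values in group C and none was called, beside 0.0587% of the 6812 genes tested. PSMB8 had a log2 fold change of 0.99 (SE 0.33, 95% interval 0.28 to 1.69, unadjusted p = 0.00898, edgeR adjusted p = 0.299), a 1.98-fold higher fitted level, and was the 1 of the 5 whose diets did not overlap, as was the case for 1.45% of all genes. TAP2 followed at 0.65 (SE 0.28, 95% interval 0.06 to 1.23, unadjusted p = 0.0324, edgeR adjusted p = 0.398). These were the 2 of 5 with an unadjusted p under 0.05, beside 11.5% of all genes. CD74 stood at 0.71 (SE 0.37, edgeR adjusted p = 0.473), TAP1 at 0.44 (SE 0.28, adjusted p = 0.565) and PSMB9 at 0.29 (SE 0.32, adjusted p = 0.755). The median was 0.65, against -0.00 for all genes tested. Without both beef tallow pig 3 and coconut oil pig 1, an alternative chosen after seeing the data, PSMB8 stood at 0.86 (adjusted p = 0.277), CD74 at 0.68, TAP2 at 0.42, TAP1 at 0.21 and PSMB9 at -0.05. When 1 pig was left out, PSMB8 ran from 0.70 (edgeR adjusted p = 0.546, without coconut oil pig 5) to 1.085. Each pig of a diet entered 2 of the 3 comparisons, so their directions are not separate evidence. DESeq2 gave none of the 5 genes an adjusted p in the comparisons with group C.

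**Figure D2:**
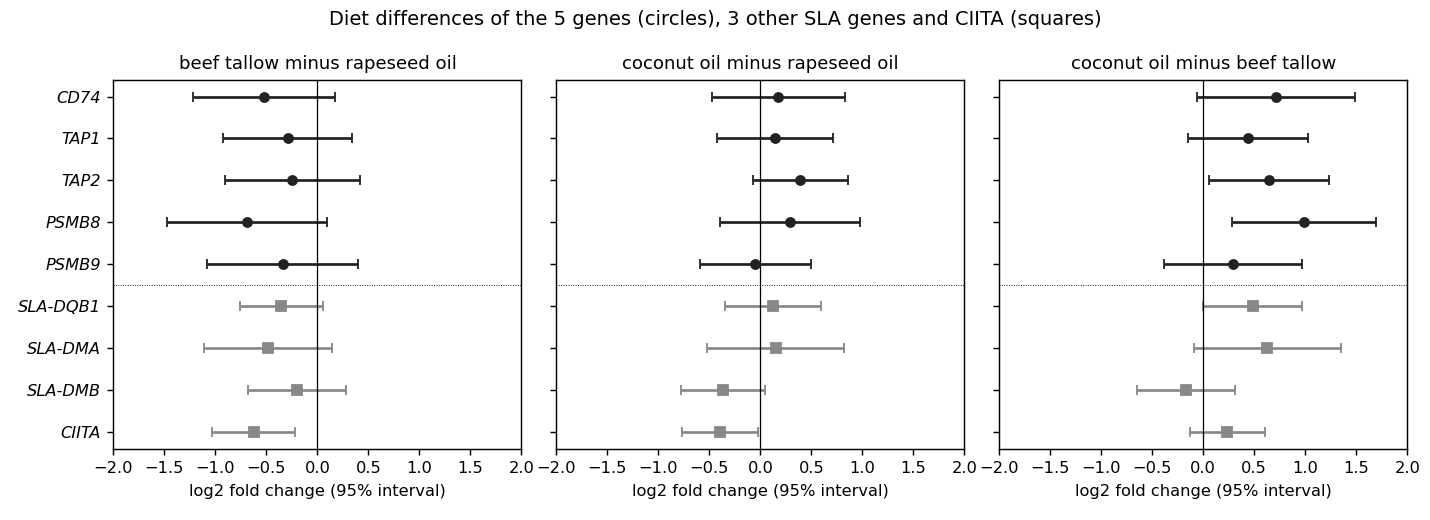
Log2 fold change (horizontal axis) with its 95% interval from edgeR, for the 3 pairs of diets. Circles are the 5 genes and squares are SLA-DQB1, SLA-DMA, SLA-DMB and CIITA. In the panel of coconut oil minus beef tallow the intervals of TAP2 (0.06 to 1.23) and PSMB8 (0.28 to 1.69) lie above 0, before adjustment for the number of genes.

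Between the sexes, regardless of diet, none of the 5 genes was called by edgeR or DESeq2. The log2 fold changes of barrows against gilts were 0.04 for CD74 (SE 0.30), -0.30 for TAP1 (SE 0.23), -0.05 for TAP2 (SE 0.24), -0.11 for PSMB8 (SE 0.32) and 0.01 for PSMB9 (SE 0.26), each with an edgeR adjusted p of 0.998. Over the 6365 genes tested 0.0786% were called and 4.02% had an unadjusted p under 0.05, against 0 of the 5.

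Pigs on the same diet differed widely in these genes. The SD of log2 CPM around the diet means was 0.60 for CD74, 0.55 for PSMB9, 0.55 for PSMB8, 0.44 for TAP1 and 0.33 for TAP2, against a median of 0.39 over the 6891 genes kept. CD74 was at the 86.8th percentile of that spread and TAP2 at the 32.8th. From the lowest to the highest pig, CPM differed 8.12-fold for PSMB8, 5.48-fold for CD74, 4.76-fold for PSMB9, 4.11-fold for TAP2 and 4.06-fold for TAP1. Counting error forms part of this spread at such read numbers, and its share was not tested.

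The neighbours TAP1 and PSMB9 varied together from pig to pig. Across the 16 pigs their log2 CPM correlated with Pearson's r = 0.76 (permutation p = 0.00083, adjusted p = 0.00249 over 3 pairs) and Spearman's rho = 0.66 (permutation p = 0.00684, adjusted p = 0.0205). After subtraction of the diet means r was 0.75. Without beef tallow pig 4 and coconut oil pig 1, the 2 pigs farthest from the median of TAP1, r was 0.53 (permutation p = 0.0508, 14 pigs), so that the relation no longer passed the threshold. Those pigs were the lowest and the highest for TAP1, and leaving out such extremes can by itself lower r. The fall therefore cannot tell whether the relation rested on them. The chains of the transporter, TAP1 and TAP2, gave r = 0.31 (permutation p = 0.239, adjusted p = 0.239) and rho = 0.29 (permutation p = 0.278, adjusted p = 0.293), with r = 0.25 without the same 2 pigs. The immunoproteasome subunits PSMB8 and PSMB9 gave r = 0.33 (permutation p = 0.211, adjusted p = 0.239) and rho = 0.28 (permutation p = 0.293, adjusted p = 0.293), with r = 0.16 without coconut oil pig 5 and beef tallow pig 3. Among the other 7 pairs of the 5 genes, given with no test, r ran from -0.24 for CD74 and TAP1 to 0.59 for CD74 and PSMB8, and the remaining neighbours gave 0.33 (PSMB8 and TAP1) and 0.47 (TAP2 and PSMB8). Whether the correlation of TAP1 with PSMB9 exceeded the other pairs was not tested.

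**Figure D3:**
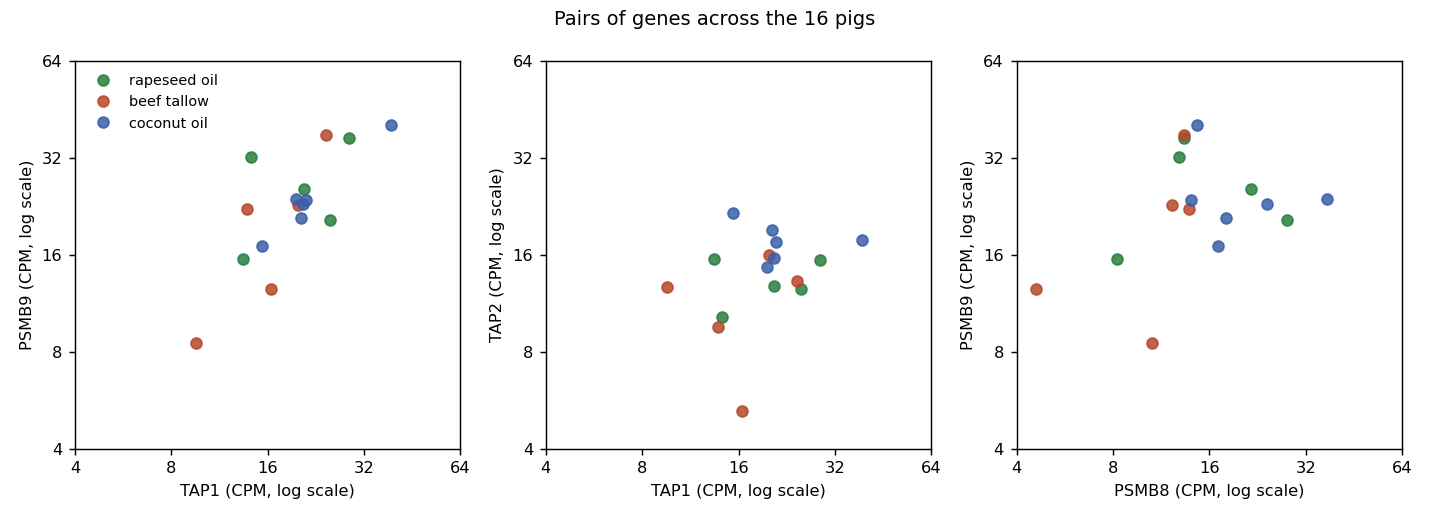
Normalized counts (CPM, both axes on a log scale) of 3 pairs of genes, 1 point per pig, coloured by diet. In the TAP1 and PSMB9 panel the points run from beef tallow pig 4 (9.56 and 8.50 CPM) to coconut oil pig 1 (38.8 and 40.5 CPM).

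The genes whose log2 CPM was most like that of CD74 over the 16 pigs, among 6346 genes with a mean of 10 CPM or more, were ALDH7A1, a lysine breakdown enzyme (r = 0.92), ERGIC2, a trafficking protein (r = 0.86), and ENSSSCG00000008898, which has no symbol here (r = 0.84). For the mean of the 4 peptide processing genes they were MB21D2 (r = 0.90), SQSTM1, a receptor for selective autophagy (r = 0.84), and RNF114, a ubiquitin ligase (r = 0.84). These are descriptions over pigs that share diets and library depth.

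Of the other class II genes, 4 further SLA genes were in the tables and 3 had enough reads to be tested. SLA-DQB1, a peptide-binding class II chain, had means of 82.2 ± 16.7 CPM (SD, n = 5) in group R, 64.2 ± 9.14 (SD, n = 5) in group B and 89.6 ± 30.9 (SD, n = 6) in group C. Its log2 fold change was -0.35 in B against R (edgeR adjusted p = 0.396) and 0.48 in C against B (edgeR adjusted p = 0.436). SLA-DMA, a chain of the DM editor that exchanges class II peptides, stood at 27.7 ± 8.49 CPM (SD, n = 5), 19.7 ± 6.54 (SD, n = 5) and 29.6 ± 15.6 (SD, n = 6) in groups R, B and C, with values of -0.48 in B against R and 0.63 in C against B (edgeR adjusted p = 0.461 and 0.492). The other DM chain, SLA-DMB, had its highest mean in group R, 46 ± 8.65 CPM (SD, n = 5), against 39.4 ± 12.4 (SD, n = 5) and 35.0 ± 8.25 (SD, n = 6) in groups B and C. SLA-DOA, a chain of the DO modulator of DM, had 1 to 11 reads in a pig and was not tested.

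CIITA, the master activator of class II transcription, was measured at 46 ± 8.10 CPM (SD, n = 5) in group R, 29.9 ± 1.77 (SD, n = 5) in group B and 35.0 ± 4.94 (SD, n = 6) in group C. The log2 fold change of B against R was -0.62 (SE 0.19, 95% interval -1.03 to -0.22, edgeR adjusted p = 0.132), and that of C against R -0.40 (SE 0.18, edgeR adjusted p = 0.349). Among the proteases that trim class II cargo, LGMN had means of 546 ± 88.7 CPM (SD, n = 5), 247 ± 150 (SD, n = 5) and 457 ± 160 (SD, n = 6) in groups R, B and C, with a log2 fold change of -1.15 in B against R (edgeR adjusted p = 0.153), and CTSL one of -0.62 in B against R (edgeR adjusted p = 0.265) and -0.54 in C against R (edgeR adjusted p = 0.255). None of these passed the threshold. LGMN and CTSL were named for their small unadjusted p. CTSS, another such protease, stood at 0.01 in B against R (edgeR adjusted p = 0.989). IFI30, of the same class II list, stood at 0.49 in B against R (edgeR adjusted p = 0.475). CTSS and IFI30 were picked after their values were seen. LGMN stood at 44.6 CPM in beef tallow pig 3, against 179 to 454 CPM in the other group B pigs. Of the other class II genes 0 of 7, 0 of 7 and 0 of 8 were called in B against R, C against R and C against B, with median log2 fold changes of -0.35, -0.26 and -0.04.

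On the class I side, 16 genes of peptide supply and loading were tested in each comparison. In B against R 1 of 16 was called, beside 1.11% of all genes tested. It was HSPA5, the general chaperone BiP of the endoplasmic reticulum, which serves far more than class I molecules. HSPA5 was already among the genes the paper listed for this comparison. It rose from 566 ± 97.7 CPM (SD, n = 5) in group R to 1650 ± 330 (SD, n = 5) in group B, a log2 fold change of 1.54 (SE 0.19, edgeR adjusted p = 0.00104). The diets did not overlap, as was the case for 4.57% of all genes. HSPA5 was called in each of 10 fits that left out 1 pig. The mean of group C lay between, at 962 ± 278 CPM (SD, n = 6). PDIA3, the disulfide isomerase ERp57 of the class I loading complex, had means of 268 ± 64.7 CPM (SD, n = 5), 391 ± 180 (SD, n = 5) and 154 ± 44.0 (SD, n = 6) in groups R, B and C. Its log2 fold change was -0.81 in C against R (edgeR adjusted p = 0.104) and -1.34 in C against B (edgeR adjusted p = 0.0668). Group C overlapped neither group R nor group B, beside 1.46% and 1.45% of all genes that did not overlap. Beef tallow pig 3 had 681 CPM of PDIA3, against 229 to 440 CPM in the other group B pigs. No gene of this list was called by edgeR in either comparison with group C, where DESeq2 called HSPA5 and PDIA3 in both. The list's medians were 0.12, -0.07 and -0.05 in B against R, C against R and C against B. PSMB10, the third catalytic subunit of the immunoproteasome, stood at 23.9 ± 5.54 CPM (SD, n = 5), 15.9 ± 6.99 (SD, n = 5) and 17.3 ± 3.73 (SD, n = 6) in groups R, B and C, with a log2 fold change of -0.59 in B against R (edgeR adjusted p = 0.399) and 0.15 in C against B (edgeR adjusted p = 0.883). It was picked for its role after its values were seen. FCGRT, a class I-like Fc receptor and the one such gene tested, had values of -0.29, -0.12 and 0.18 in B against R, C against R and C against B, none of them called. Its level was 183 CPM in beef tallow pig 3, against 480 to 696 CPM in the other group B pigs.

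**Figure D4:**
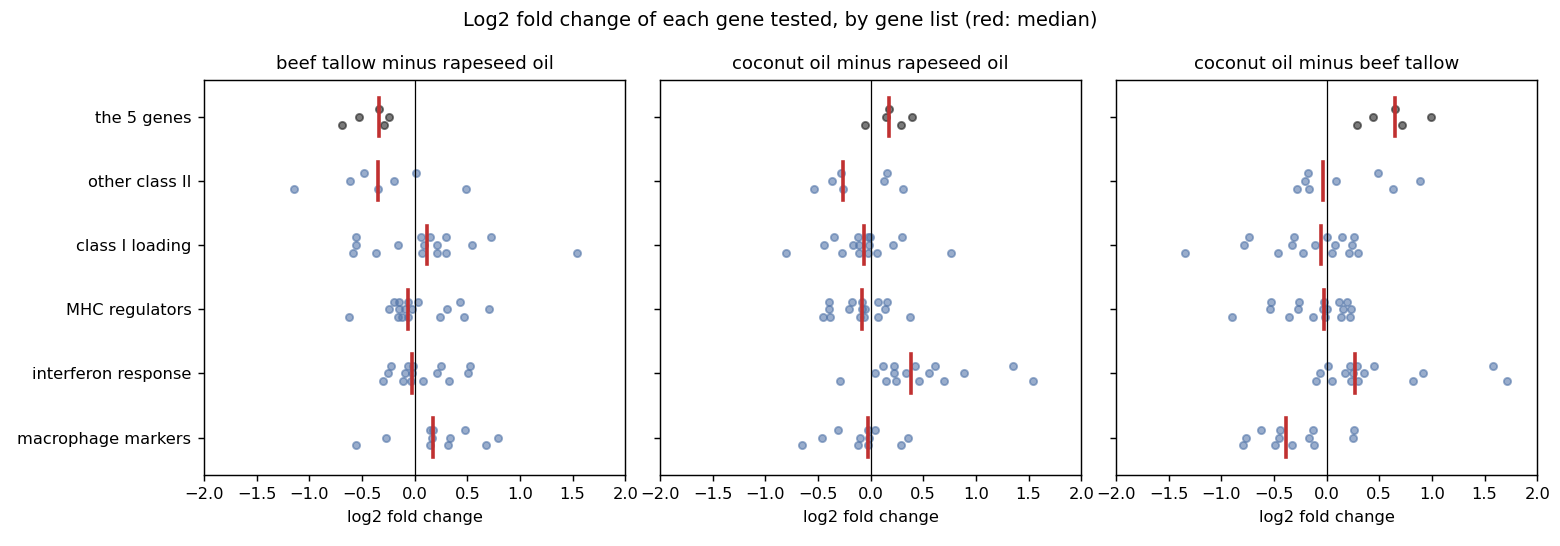
Log2 fold change (horizontal axis) of each gene tested, 1 point per gene, for the 5 genes and 5 gene lists in the 3 pairs of diets, with red bars at the medians. The 5 genes have medians of -0.34, 0.18 and 0.65 from left to right, and the interferon response list of -0.02, 0.38 and 0.27, of which the last pair became -0.10 and -0.10 without coconut oil pig 1.

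The lists of regulators and of interferon-induced genes held no gene called by edgeR in any pair of diets, and DESeq2 called IFI6 in C against B. Among regulators, JAK1 and IFNAR2, which relay interferon signals, had log2 fold changes of 0.43 and 0.47 in B against R (edgeR adjusted p = 0.245 and 0.248) and of -0.53 and -0.54 in C against B (edgeR adjusted p = 0.299 and 0.345). Of the interferon response genes 15 of 16 were higher in C than in R and 14 of 16 higher in C than in B, with median log2 fold changes of 0.38 and 0.27. Both directions rested on coconut oil pig 1, without which 6 of 15 and 6 of 14 were higher, with medians of -0.10 and -0.10. IFI6 had a mean of 1630 ± 1270 CPM (SD, n = 6) in group C against 559 ± 324 (SD, n = 5) and 546 ± 141 (SD, n = 5) in groups R and B, with log2 fold changes of 1.54 and 1.58 (edgeR adjusted p = 0.174 and 0.208). In the same pair of comparisons USP18, which dampens interferon signalling, had log2 fold changes of 1.35 and 1.71 (edgeR adjusted p = 0.313 and 0.299) and 52.6 CPM in coconut oil pig 1, against 4.28 to 15.8 CPM in the other coconut oil pigs. IFI6 was highest in another pig, coconut oil pig 5, at 4027 CPM, against 613 to 1974 CPM in the other coconut oil pigs.

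Coconut oil pig 1, the pig with the highest TAP1 and PSMB9, was also the highest of the 16 for 15 of the 18 interferon response genes kept over all pigs, beside 6.34% of all genes kept. CXCL10, an interferon-induced chemokine, stood at 190 CPM in this pig and at 24.3 to 117 CPM in the other 15. The pig was not high for every antigen presentation gene, since CD74 at 7.28 CPM was the lowest of its diet. The counts over the interferon list and the gene CXCL10 were chosen after this pig's values were seen.

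Markers of other cells were read beside these results, and their part in them was not tested. Summed CPM of the 15 macrophage and Kupffer cell markers present ran from 938 to 1560 in group R, 1170 to 2170 in group B and 998 to 1250 in group C. The macrophage marker CD163 rose in B against R (log2 fold change 0.79, edgeR adjusted p = 0.0414, called in 2 of 10 fits that left out 1 pig), with 9 of 11 macrophage markers higher. In C against B 10 of 12 macrophage markers had lower values (median -0.39). CD74 had a lower fitted value in B against R and a higher one in C against B, neither of them called. Between the sexes, all 11 macrophage markers tested were lower in barrows than in gilts (median -0.35), with 0 called. Of these 11, 4 had an unadjusted p under 0.05 (edgeR), beside 4.02% of all genes. The 9 B cell markers summed to 22.7 to 55.4 CPM in group R, 6.64 to 47.9 in group B and 8.47 to 25.4 in group C. The 7 dendritic cell markers summed to 8.24 to 16.2, 9.55 to 22.1 and 1.21 to 17.5 CPM, with ZBTB46 at 0 in every pig, and the 12 T and NK cell markers to 45.3 to 83.1, 32.9 to 81.4 and 47.2 to 104 CPM. The endothelial marker LYVE1 rose in B against R (log2 fold change 0.88, edgeR adjusted p = 0.0495, called in 2 of 10 such fits), while of the 5 endothelial markers tested 3 were higher and 2 lower, and the sum of the 7 endothelial markers, with EGFL7 at 0 in every pig, was 302 to 486, 387 to 489 and 348 to 443 CPM in groups R, B and C. The 9 hepatocyte markers, which include albumin, summed to 129000 to 189000 CPM in group R, 81100 to 182000 in group B and 114000 to 215000 in group C. Of the 8 tested in B against R, 4 were higher and 4 lower. TTR, the thyroid hormone and retinol carrier transthyretin, fell (log2 fold change -0.78, edgeR adjusted p = 0.0426, called in 2 of 10 such fits). Its diets did not overlap, as was the case for 4.57% of all genes, and 1.11% of all genes were called. The 9 stellate cell and fibroblast markers summed to 337 to 890 CPM and the 4 cholangiocyte markers to 3.93 to 34.0 CPM.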

How the data were processed

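Liver RNA of 16 pigs was made into 3′ mRNA libraries with the QuantSeq FWD kit. Per the study's methods, the authors trimmed reads with FLEXBAR, mapped them to Sus scrofa 11.1 with TopHat and counted them with HTSeq, and they deposited raw counts per Ensembl gene for each pig. Reads on several places (15.4 to 38.1%), on overlapping genes (3.08 to 4.60%) or on no gene (15.9 to 30.1%) were left out of library sizes and tests. Symbols came from a gene name table, and coordinates from RefSeq (Sscrofa11.1), matched by symbol.

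Each pair of diets was fitted alone on the deposited counts with edgeR 4.0.16 in R 4.3.3 (TMM, filterByExpr with minimum count 10 and total 15, quasi-likelihood F test, Benjamini-Hochberg adjustment over all genes tested, threshold 0.05), with the first diet as reference. The sexes were compared over all 16 pigs. CPM used TMM library sizes, and correlations used log2 CPM with prior count 2 and 100000 permutations. The fit of each pair of diets was also run on counts simulated from its own estimated dispersions. Those counts hold no outlying pigs, so this checks the fit only under its own model. Alternatives were DESeq2 1.42.0, RLE scaling, no filter, a minimum of 10 reads per pig, a joint fit of the 16 pigs, sex, replicate number or the share of reads with several alignments as a term, prior count 0.5, and leaving out each pig. The genes and lists were chosen with earlier results of these data known. Named were the 5 genes, the SLA genes of the class II list, listed pathway genes past the threshold, the 5 with the smallest unadjusted p in each pair of diets, and the 3 genes most like each group. Markers called in a pair of diets are named, and the 3 of each marker list with the highest mean count are given only within their list's sum.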

Additional observations from a re-analysis of the deposited data

Results flagged for a closer look

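Single pigs stood apart from their diet group in 7 of 54 gene and diet combinations (18 genes), by Dixon's criterion at the 95% level. Its rate of about 1 in 20 by chance holds for independent, normally distributed values. CPM at low read numbers need not be normal, and the combinations share pigs, so the count cannot be set against that rate. Coconut oil pig 1 accounted for 3 of them, with TAP1 at 38.8 CPM (next pig 21), PSMB9 at 40.5 CPM (next 23.8) and USP18 at 52.6 CPM (next 15.8). The others were SLA-DMB in beef tallow pig 3 at 61.0 CPM (next 37.2), CIITA in rapeseed oil pig 4 at 31.9 CPM (next 46.5) and in beef tallow pig 4 at 32.9 CPM (next 29.9), and USP18 in beef tallow pig 5 at 12.2 CPM (next 4.25).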

How the results depend on the processing

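None of the 5 genes was called under any alternative that gave a value. Of 272 refitted log2 fold changes 264 kept their direction, 8 reversed and 0 passed the threshold, and 11 had no adjusted p. The smallest adjusted p was 0.0531, for PSMB8 in B against R with the share of reads with several alignments as a term (log2 fold change -0.98). The reversals were TAP1 in C against R (-0.0832 with that term, and -0.0849 to 0.29 when 1 pig was left out), PSMB9 in C against R (0.0014 with the replicate block, and -0.25 to 0.11 when 1 pig was left out) and PSMB9 in C against B (-0.0541 without beef tallow pig 3 and coconut oil pig 1, and 0.09 to 0.59 when 1 pig was left out). With at least 10 reads in every pig most of the 5 genes left the test and gave no value.

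Pathway list genes called in B against R numbered 2 without a filter and 3 with the several-alignments term, against 1. In C against R they numbered 2 by DESeq2 (HSPA5 and PDIA3), 3 without a filter and 1 with the replicate block, against 0, and 0 to 1 when 1 pig was left out (HSPA5 without coconut oil pig 3). In C against B they numbered 3 by DESeq2 (HSPA5, PDIA3 and IFI6), 2 without a filter and 1 with all 16 pigs in 1 fit, against 0, and 0 to 1 when 1 pig was left out (PDIA3 without beef tallow pig 2). Over all genes, calls in B against R went from 70 to 188 by DESeq2, 190 without a filter, 35 with the replicate block, 193 with the several-alignments term and 9 to 149 when 1 pig was left out, the highest without beef tallow pig 3 and the lowest without rapeseed oil pig 5. In C against R they went from 9 to 93, 82 and, with at least 10 reads in every pig, 14, and to 3 to 27 when 1 pig was left out. In C against B they went from 4 to 53, 22 and, with all 16 pigs in 1 fit, 8, and to 4 to 9 when 1 pig was left out. The cause was not tested. Deviations of same-numbered pigs correlated from -0.108 to 0.146 in B against R, -0.00 to 0.102 in C against R and -0.261 to 0.094 in C against B. In these pairs of diets 1, 3 and 1 of 5 pigs matched their own number best. With 5 pairs in each, this cannot settle whether replicate numbers pair the pigs.

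The main limits are the low read numbers, 7 to 61 per gene and pig, and the uncounted reads. The share of reads with several alignments overlapped between the diets and was highest in coconut oil pig 3 (38.1%) and beef tallow pig 3 (33.2%). Reads on no annotated gene made up 15.9 to 30.1% of a library. Summed over all pigs, the hepatocyte markers ran from 7 reads for SERPINA1 to 1554603 for ALB. Low counts can thus have reasons other than depth. Whether reads of the genes analysed here fell on no annotated gene was not tested. The class I heavy chains, SLA-DRA and B2M were not analysed here.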
